A study of Mus musculus with 6 samples.

Results

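To follow lipid storage and lipoprotein uptake in mouse induced pluripotent stem cells (iPSCs) under intermittent compressive force (ICF), 8 genes were read out of the RNA sequencing data: Hilpda, Plin2, Plin3, Vldlr, Pnpla2, Lipe, Dgat1 and Dgat2. They were found by mouse gene symbol among the 50686 Ensembl gene identifiers of the count files, and each matched 1 identifier. The cells were iPSCs derived from mouse gingival fibroblasts, formed into embryoid bodies and guided with retinoic acid toward immature mesenchymal constructs, which were then plated on gelatin. For 24 h in serum-free medium, 3 samples received ICF of 1.5 g per square centimetre at 0.23 Hz and 3 control samples stayed unloaded. The samples carry donor numbers 1 to 3 in each group, called replicates here, and no strain, age or sex is given. Both groups shared the same cell source, retinoic acid and serum-free medium, and the SNL feeder cells were removed before embryoid body formation.

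Cells keep spare fatty acids as triglyceride in lipid droplets, organelles with a neutral lipid core and a coat of proteins. Dgat1 and Dgat2 encode the enzymes that add the last acyl chain to make triglyceride, and Plin2 and Plin3 encode perilipins, proteins of the droplet coat. Pnpla2 (adipose triglyceride lipase) removes the first fatty acid from stored triglyceride, Lipe (hormone-sensitive lipase) acts next on diglyceride, and Hilpda encodes a small protein induced by low oxygen that inhibits Pnpla2. Vldlr encodes a cell surface receptor that takes up lipoproteins rich in triglyceride.

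One of the 8 genes, Vldlr, changed with ICF: its mRNA fell to less than that of any control in all 3 ICF samples. Lipe, Pnpla2 and Hilpda were lower by smaller amounts that did not pass the threshold in the edgeR test without pairing. All 3 passed when samples of the same replicate number were paired and when replicate 3 of both groups was left out, and Lipe and Pnpla2 also passed with DESeq2 without pairing. Plin2, Plin3, Dgat1 and Dgat2 did not pass in any of these tests. Levels are given as CPM, the usual depth-scaled read counts, with TMM to correct for composition, and a gene is called changed at an adjusted p under 0.05 in edgeR's quasi-likelihood test over all 16729 genes past the low-count filter. All 8 genes passed that filter. Of all genes tested, 4.38% were called lower and 3.47% higher with ICF, and of the 8 genes 1 was lower and 0 were higher. At an unadjusted p under 0.05 in edgeR, 4 of the 8 were lower and 0 higher, beside 13.2% and 12.4% of all genes. DESeq2 called 3 of the 8 lower and 0 higher, beside 7.26% and 5.95% of the genes to which it gave an adjusted p. The same edgeR test with the replicate number as a block called 15.3% of all genes lower and 14.6% higher, and of the 8 genes 4 were lower and 0 higher. Without replicate 3 of both groups, edgeR called 4 of the 8 lower and 0 higher. That setting called 2627 of all genes lower and 2466 higher, against 733 and 580 with all 6 samples. The median log2 fold change was -0.17 over the 8 genes and 0.00 over all genes tested.

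The deposited counts on genes summed to between 28711166 and 34194413 per sample, and the 8 genes had between 209 and 4719 counts in any sample. Replicate 3 stood apart in both groups: reads outside annotated genes made up 6.24% of the file total in the control and 6.04% with ICF, against 4.09% to 4.52% in the other samples. Multiples of 4 made up 89.0% of the counts above 0 in the third ICF sample, against 20.3% to 21.5% elsewhere. In that sample 20802 genes had a count, against 24340 to 24889 elsewhere, and the counts of all 8 genes were multiples of 4. The values were used as deposited, and the number of reads behind them in that sample is not known. Pluripotency markers such as Pou5f1, Nanog and Sox2 were present in every sample, and the summed level of 10 such markers was 3850 to 4660 CPM in the control and 3480 to 3930 CPM with ICF, with Tdgf1 as the 1 gene called lower. Of 10 mesenchymal markers, Col1a1 and Col3a1 were called higher, and the sum was 372 to 429 CPM in the control and 446 to 459 CPM with ICF. Of 9 tested visceral endoderm and hepatocyte markers, Hnf4a was called higher and Amn and Sox17 lower. The sum over all 10 was 1070 to 1500 CPM in the control and 1190 to 1400 CPM with ICF. Most of it was Cubn, with means of 980 and 1090 CPM. Of 4 tested muscle and heart markers, Tnnt2 was called higher (means of 2.13 and 6.47 CPM) and the other 3 were not called. The sum over all 8 was 4.24 to 5.34 CPM in the control and 7.81 to 9.8 CPM with ICF. With the replicate block, 4 pluripotency markers were lower and 0 higher, and 4 mesenchymal markers were higher and 0 lower. Of the endoderm and hepatocyte markers, 3 were higher and 3 lower with the block, and of the muscle and heart markers 1 and 0. The block called 14.6% of all genes higher and 15.3% lower. The part of these marker shifts in the results below was not tested. In bulk RNA, fewer cells of a type and less RNA per cell cannot be told apart.

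Start regions of 4 genes are shown beside the values: 1 start each of Hilpda, Plin2 and Lipe, the genes that hold the searched motif, and both annotated starts of Vldlr, the gene called lower. The sequences are RefSeq promoter windows of build GRCm38.p6, which list 6 of the 8 genes with 9 windows. Each stretch has 120 bases, written 5′ to 3′ on the gene's strand. Capitals mark ACGTG, a form of the core of the hypoxia response element, on either strand. Other forms of this core, such as GCGTG, were not searched or marked. Where it reads CACGTG, the palindromic E-box, it matches on both strands and counts as 1 place.
Hilpda, second start, chr6:29272516-29272635, plus strand: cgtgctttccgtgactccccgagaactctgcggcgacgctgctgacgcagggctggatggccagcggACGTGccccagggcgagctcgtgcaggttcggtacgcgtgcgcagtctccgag
Plin2, chr4:86670050-86670169, minus strand: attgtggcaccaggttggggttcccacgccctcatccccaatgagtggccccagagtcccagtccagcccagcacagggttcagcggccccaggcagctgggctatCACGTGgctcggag
Lipe, first start, chr7:25396078-25396197, minus strand: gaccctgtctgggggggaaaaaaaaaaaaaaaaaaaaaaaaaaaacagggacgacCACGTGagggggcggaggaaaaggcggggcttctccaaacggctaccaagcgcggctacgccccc
Vldlr, first start, chr19:27216374-27216493, plus strand: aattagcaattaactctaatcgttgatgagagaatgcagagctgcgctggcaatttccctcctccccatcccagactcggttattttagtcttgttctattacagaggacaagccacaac
Vldlr, second start, chr19:27216910-27217029, plus strand: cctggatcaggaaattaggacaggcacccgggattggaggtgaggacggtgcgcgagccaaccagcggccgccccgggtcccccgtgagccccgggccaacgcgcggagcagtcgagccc

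Of the 6 genes with a window, 3 held ACGTG, namely Hilpda, Plin2 and Lipe, and 21.8% of all 27025 genes in the table did. Plin2 and Lipe held it within CACGTG, which 8.09% of all genes held. No window of Vldlr, Plin3 or Pnpla2 held ACGTG. The other motifs searched on both strands, the DR1 direct repeat bound by PPAR receptors and CACCCCAC (the core of a sterol regulatory element), were in no window of these genes, and 0.0481% and 3.3% of all genes held them. These are matches of letters in 300-base windows only.

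The receptor gene Vldlr lies on the plus strand of chromosome 19 of GRCm38, between 27216484 and 27254231. It measured 28.3, 30.3 and 27.4 CPM in control replicates 1 to 3 and 12.2, 12.2 and 12.8 CPM in ICF replicates 1 to 3. The groups lay far apart, and the 3 ICF samples were closer to each other than the controls were. Mean CPM was 28.7 ± 1.47 (SD, n = 3) in the unloaded cells and 12.4 ± 0.369 after loading (SD, n = 3), 2.31-fold lower. The log2 fold change was -1.21 ± 0.05 (SE), with an edgeR adjusted p of 0.00031, and Vldlr had the 8th smallest p of all genes tested. By size of the fall it was the 203rd. Vldlr passed in all 6 tests that left out 1 sample, with log2 fold changes from -1.24 to -1.17 and adjusted p-values from 0.00019 to 0.0037 in edgeR. Its exact two-sided permutation p was 0.1, the smallest that 3 samples against 3 allow.

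**Figure D1:**
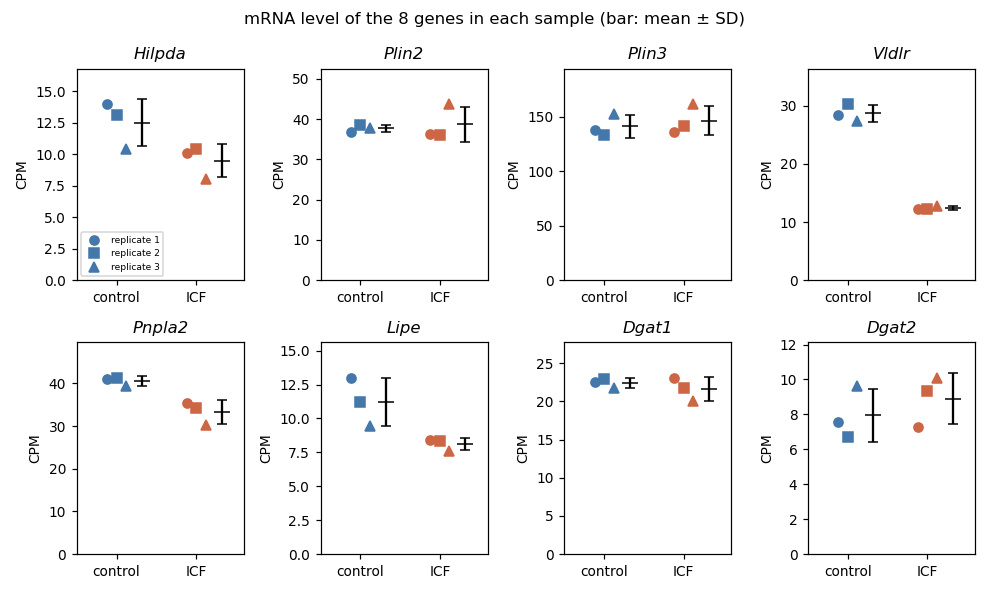
Level of each of the 8 genes in CPM (vertical axis, from 0) in control and ICF samples, with symbols for replicates 1 to 3 and a bar for the mean ± SD. Vldlr falls from 27.4 to 30.3 CPM in the controls to 12.2 to 12.8 CPM with ICF, Pnpla2 and Lipe also do not overlap between groups, and the other 5 genes overlap.

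Both lipase genes had lower values in every ICF sample than in any control. Pnpla2, on chromosome 7 from 141455198 to 141460743, had 41.1, 41.3 and 39.3 CPM in the controls and 35.4, 34.2 and 30.2 CPM with ICF. Its log2 fold change was -0.28 ± 0.07 (SE), and its adjusted p was 0.062 in edgeR, 0.0011 with the replicate block and 0.032 with DESeq2. Lipe, on the minus strand of chromosome 7 from 25379527 to 25398710, had 13, 11.2 and 9.46 CPM in the controls and 8.38, 8.35 and 7.59 CPM with ICF. The lowest control sample of Lipe, replicate 3, was close to the ICF samples. Its log2 fold change was -0.47 ± 0.14 (SE), and its adjusted p was 0.069 in edgeR, 0.00091 with the replicate block and 0.028 with DESeq2. Without control replicate 3 the log2 fold change of Lipe was -0.58 and passed (adjusted p = 0.026, edgeR). Groups that do not overlap with ICF lower were found for 15.7% of all genes tested and for 3 of the 8 genes, and groups that do not overlap with ICF higher for 15.6% of all genes and 0 of the 8. The log2 ratio of Pnpla2 to Lipe overlapped between groups, with 2.62, 2.85 and 3.01 in the controls and 3.04, 3.00 and 2.95 with ICF (exact two-sided permutation p = 0.3, adjusted 0.667 over 4 ratios).

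Of the exon bases of Lipe, 15.6% overlap 4732471J01Rik on the other strand. The paper describes a strand-specific library, and whether the counting used strand is not stated. That gene had 21 to 39 counts per sample, against 220 to 380 counts for Lipe. None of the other 7 genes has exons that overlap another gene in the annotation. Across the 8 genes, 0% to 2.01% of the 75-base stretches of a transcript also occur in another gene, with Lipe the highest.

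Hilpda, the inhibitor of Pnpla2, lies on chromosome 6 from 29272488 to 29275446. Its level was 14.0, 13.1 and 10.4 CPM in the controls and 10.1, 10.4 and 8.01 CPM with ICF. Replicate 3 was the lowest sample of both groups, and the lowest control equalled the highest ICF sample to 3 digits. Compared within replicate numbers, Hilpda differed by -0.47, -0.32 and -0.37 on the log2 CPM scale (ICF minus control). The log2 fold change was -0.39 ± 0.18 (SE), with an adjusted p of 0.14 in edgeR, 0.0024 with the replicate block and 0.1 with DESeq2. When replicate 3 of both groups was left out, the log2 fold change was -0.40 and the adjusted p was 0.0034 (edgeR). The log2 ratio of Hilpda to Pnpla2 per exon kilobase averaged -0.26 ± 0.19 in control samples and -0.36 ± 0.10 in ICF samples (SD, n = 3 each), a difference of -0.10 with a standard error of 0.12 (exact two-sided permutation p = 0.5, adjusted 0.667 over 4 ratios).

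**Figure D2:**
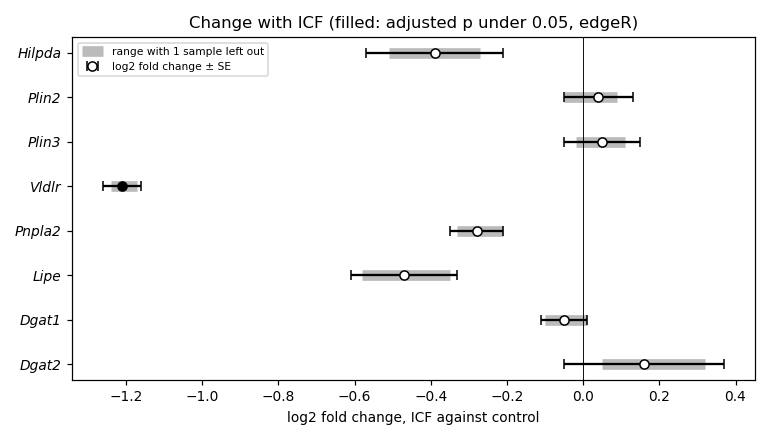
Log2 fold change of each gene with ICF against control (horizontal axis) with its standard error, and a grey bar for the range when 1 sample is left out. Vldlr, the filled point at -1.21, is the 1 gene past the threshold, and the bars of Hilpda, Pnpla2 and Lipe stay below 0.

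The droplet coat genes Plin2 and Plin3 were not called in any test. Plin2, on chromosome 4 from 86648386 to 86670060, had 36.9, 38.6 and 37.8 CPM in the controls and 36.4, 36.1 and 43.8 CPM with ICF. ICF replicate 3 was its highest sample and the other ICF samples lay just under the controls. The log2 fold change of 0.04 ± 0.09 (SE), edgeR adjusted p 0.83, became -0.05 without ICF replicate 3. Plin3, on chromosome 17 from 56277476 to 56292873, had 138, 133 and 153 CPM in the controls and 136, 142 and 162 CPM with ICF. The groups overlapped, and the log2 fold change was 0.05 ± 0.10 (SE), with an edgeR adjusted p of 0.73. Plin3 had a log2 fold change of -0.02 without ICF replicate 3. The log2 ratio of Plin2 to Plin3 averaged -1.79 ± 0.11 in control samples and -1.81 ± 0.05 in ICF samples (SD, n = 3 each).

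Dgat1, on chromosome 15 from 76502015 to 76511953, had 22.6, 23.0 and 21.7 CPM in the controls and 23.1, 21.8 and 20.0 CPM with ICF. Its log2 fold change was -0.05 ± 0.06 (SE), with an edgeR adjusted p of 0.74. Dgat1 had a log2 fold change of 0.01 without ICF replicate 3. Dgat2, on chromosome 7 from 99153658 to 99182719, had 7.56, 6.68 and 9.64 CPM in the controls and 7.26, 9.32 and 10.1 CPM with ICF. Both groups spanned most of the same range, and the log2 fold change of Dgat2 was 0.16 ± 0.21 (SE), with an edgeR adjusted p of 0.61. The log2 ratio of Dgat1 to Dgat2 averaged 1.52 ± 0.31 in control samples and 1.31 ± 0.35 in ICF samples (SD, n = 3 each) (exact two-sided permutation p = 0.5, adjusted 0.667 over 4 ratios).

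**Figure D3:**
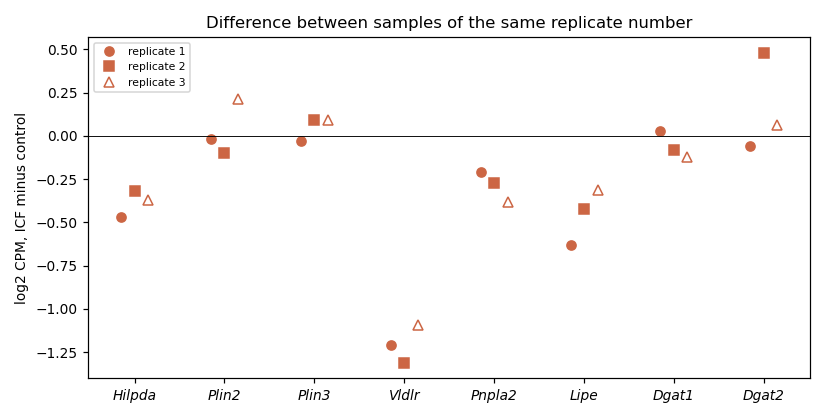
Difference in log2 CPM between the ICF and the control sample of the same replicate number (vertical axis) for each gene, with 1 symbol per replicate. All 3 pairs are below 0 for Hilpda, Vldlr, Pnpla2 and Lipe, with Vldlr from -1.31 to -1.09, and the pairs lie on both sides of 0 for Plin2, Plin3, Dgat1 and Dgat2. The share of all genes with all 3 pairs in the same direction was not computed.

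Per exon kilobase, Plin3 was the most abundant of the 8 genes, with 37.3 ± 2.66 CPM per kilobase (SD, n = 3) in the control. The length was the union of all annotated exons of a gene, for Plin2 3512 bases against 1888 in its longest transcript. For Pnpla2 these lengths were 3020 and 2625 and for Hilpda 1103 and 982, so the order below Plin3 depends on the length used. Pnpla2 (13.4 ± 0.369), Hilpda (11.3 ± 1.73) and Plin2 (10.8 ± 0.243) followed, then Dgat1 at 7.35 ± 0.211 (SD, n = 3 for each). Vldlr (2.85 ± 0.146), Dgat2 (2.58 ± 0.493) and Lipe (1.91 ± 0.301) were the lowest. Among neighbours in this order, the control samples overlapped for Hilpda and Plin2, for Vldlr and Dgat2 and for Dgat2 and Lipe, and did not overlap for Pnpla2 and Hilpda. With ICF, Vldlr fell to 1.23 ± 0.0367 CPM per kilobase (SD, n = 3), below Dgat2 (2.88 ± 0.474) and Lipe (1.38 ± 0.0757). Plin2 (11 ± 1.24), Pnpla2 (11 ± 0.897) and Hilpda (8.64 ± 1.2) were then the 3 genes after Plin3 (38.7 ± 3.67).

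Within groups, several of the 8 genes moved with the replicate. The deviations of log2 CPM from the group mean over the 6 samples had a Pearson r of 0.97 between Pnpla2 and Dgat1 and 0.89 between Hilpda and Lipe. Between Plin3 and Dgat1 the r was -0.95 and between Plin3 and Hilpda -0.90. For Vldlr the r with Hilpda was 0.04. These are descriptions over 6 samples that share their libraries and scaling, and replicate 3, which was the highest in Plin3 and Dgat2 and the lowest in Hilpda, Lipe, Pnpla2 and Dgat1 in both groups, weighs most in them.

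Among 11924 genes whose mean count reached 100, the log2 CPM profile of Vldlr over the 6 samples was most like those of Pfkp (r = 0.9992), Ccng2 (0.9968) and Phrf1 (0.9965). Pfkp, a glycolytic phosphofructokinase, averaged 492 ± 19 CPM in the control (SD, n = 3) and 213 ± 9 CPM after ICF (SD, n = 3), the same log2 fold change of -1.21 as Vldlr. The atypical cyclin gene Ccng2 had a log2 fold change of -1.10 and Phrf1 of -0.19. Hilpda was most like Dnpep (r = 0.9983), Cpsf1 (0.9979) and Rpl37 (0.9976), with log2 fold changes of -0.28, -0.18 and -0.24. Plin2 was like Sdhaf3 (r = 0.9917) and Nrp2 (0.9870), whose log2 fold changes of 0.09 and 0.02 turned to -0.11 and -0.06 without ICF replicate 3. Each r was taken over 6 samples that include the difference between groups, and the genes were picked for the highest r. Values near 1 follow from that selection, and shared regulation was not tested.

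The other genes of lipid storage and uptake were read from 8 lists that held 109 matched genes, of which 93 were tested, with 4 called higher and 6 lower. Of 8 other droplet coat and assembly genes tested, 0 were called (median log2 fold change 0.07). The most abundant, Faf2 and Aup1, had log2 fold changes of 0.06 and 0.08, and Fitm1, of low level, had -1.21 with an adjusted p of 0.14 in edgeR and 0.025 with the block. Of 13 other triglyceride synthesis genes, 0 were called (median 0.02), and the acyltransferase genes Agpat5 and Agpat1 had log2 fold changes of -0.03 and -0.07. In each of these lists, the block gave 2 higher and 1 lower, beside 14.6% and 15.3% of all genes, and an unadjusted p under 0.05 in edgeR gave the same counts, beside 12.4% and 13.2% of all genes. DESeq2 called 2 droplet genes higher and 1 synthesis gene lower.

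Of 8 other triglyceride breakdown genes, 1 was called (median -0.06). This was Abhd5, which encodes the coactivator of Pnpla2, and it was higher in every ICF sample: 30.1, 32 and 30.4 CPM in the controls and 39.4, 42.3 and 42.7 CPM with ICF. The log2 fold change of Abhd5 was 0.43 ± 0.05 (SE), with an edgeR adjusted p of 0.0095, and it passed in 4 of 6 tests that left out 1 sample, without control replicate 1 or 2 having adjusted p-values of 0.061 and 0.051 (edgeR). Of the 4 sterol ester genes, Soat1, which makes cholesteryl ester for storage, was called lower, with mean CPM of 160 ± 0.47 in the control and 126 ± 9.67 after ICF (SD, n = 3 each). Soat1 changed by -0.34 on the log2 scale (adjusted p = 0.019, edgeR), and it passed in 2 of the 6 tests, with 0.069 to 0.096 without control replicate 1 or 2 or ICF replicate 1 or 2.

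Of 17 other lipoprotein receptor and lipase genes tested, 2 were called lower (median -0.16). With the block, which called 15.3% of all genes lower and 14.6% higher, 7 of the 17 were lower and 3 higher, among them Scarb1, a receptor for HDL (log2 fold change -0.32, adjusted p = 3.7e-05 with the block and 0.061 without), and Lrp1 (-0.31, 0.00028 and 0.081). Of the 3 higher, Lrp2 had a log2 fold change of 0.38 (8.1e-07 and 0.28) and Lpl also 0.38 (0.012 and 0.18). Lrpap1, a chaperone of lipoprotein receptors, had a log2 fold change of 0.23 (0.00042 and 0.059).

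Of 14 fatty acid uptake and activation genes, Slc27a3 was called higher and Acsl1 lower (median -0.01). Acsl1, which joins fatty acids to coenzyme A, had a log2 fold change of -0.40 (adjusted p = 0.019, edgeR), and Slc27a3, of the fatty acid transporter family, 0.49 (adjusted p = 0.029, edgeR). With 1 sample left out, Acsl1 did not pass without replicate 1 or 2 of either group, and Slc27a3 not without control replicate 2 or ICF replicate 1 or 2. Of 19 tested genes on the fatty acid oxidation list, 2 were called higher (median -0.02), Cpt1a and its brain-type relative Cpt1c. Cpt1a moves fatty acids toward mitochondrial oxidation, and whether Cpt1c takes part in it was not tested. Cpt1c averaged 44.4 ± 1.81 CPM in the control (SD, n = 3) and 70.9 ± 3.03 after ICF (SD, n = 3), or 0.67 on the log2 scale (adjusted p = 0.00095, edgeR), and passed in all 6 tests without 1 sample. Cpt1a had a log2 fold change of 0.38 (adjusted p = 0.015, edgeR) and did not pass without replicate 1 or 2 of either group. Of 10 PPAR receptors and PPAR-linked genes, 2 were called lower (median -0.02), Pdk4 and Ucp2, with log2 fold changes of -0.95 and -0.81 (adjusted p = 0.0091 and 0.022, edgeR). Pdk4, a kinase that inhibits pyruvate dehydrogenase, did not pass without control replicate 1 or 2, and Ucp2, a mitochondrial carrier, passed in 3 of 6 tests and not without control replicate 1 or 2 or ICF replicate 1. The median over all genes tested was 0.00, and the calls in these lists stand beside the 4.38% lower and 3.47% higher of all genes. With the block, 2 breakdown genes were higher and 1 lower, and 0 sterol ester genes higher and 1 lower. Of the uptake and activation genes 3 were higher and 2 lower, of the oxidation list 4 and 2, and of the PPAR list 2 and 2. The block called 14.6% of all genes higher and 15.3% lower.

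**Figure D4:**
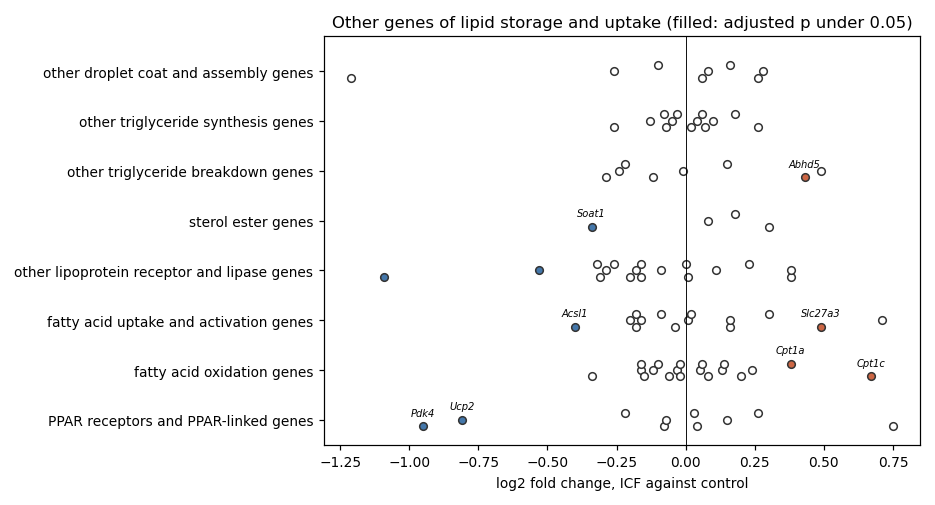
Log2 fold change with ICF (horizontal axis) of the tested genes of the 8 fixed lists (rows), 1 point per gene. Filled points are the 4 genes called higher and the 6 called lower, which lie in 6 of the lists, and most other points lie near 0.

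**Figure D5:**
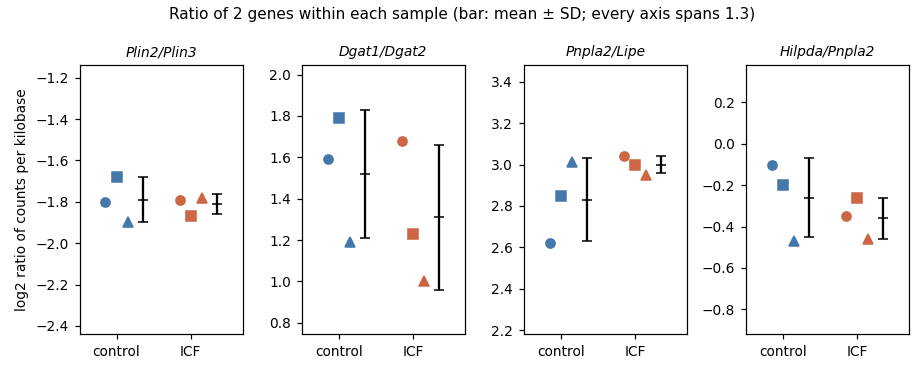
Log2 ratio of counts per exon kilobase of 2 genes within each sample (vertical axes, each spanning the same range), for control and ICF, with replicates 1 to 3 as circle, square and triangle and a bar for the mean ± SD. All 4 ratios overlap between the groups, with the widest spread for Dgat1 to Dgat2, at 1.19 to 1.79 in the controls and 1.00 to 1.68 with ICF.

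Genes that mark fat cells were near absent. Of 8 adipocyte markers, 7 were under 1 CPM in every sample, Lep had no count in any sample, Adipoq reached at most 0.138 CPM and the adipocyte perilipin gene Plin1 at most 0.0319 CPM. Pparg, the eighth, averaged 1.92 ± 0.545 CPM in control samples and 3.26 ± 1.73 CPM in ICF samples, SD, n = 3 each (adjusted p = 0.24, edgeR, and 0.0051 with the block). Of 8 macrophage markers 2 were tested and 0 called in edgeR or DESeq2 (0 at an unadjusted p under 0.05), 6 were under 1 CPM in every sample, and Fcgr1 and C1qa had no count. The other macrophage markers were Cd68, at 16.6 and 17.9 CPM, and Csf1r, at 4 and 3.16 CPM (control and ICF means), and the part of either cell type in the results was not tested.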

How the data were processed

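RNA sequencing measured mRNA in 3 ICF-treated and 3 control samples. Per the paper's methods and the labels, the authors used FastQC, Trimmomatic, HISAT2 and HTSeq. Their test of differential expression was DESeq2, with a false discovery rate under 0.05. The deposited values are counts per gene in whole numbers, and those of ICF replicate 3 are mostly multiples of 4. The submitters' processing notes name the builds GRCm38 and hg38. The paper names a directional kit for the libraries, and the strand setting of the counting and the annotation are not given in the sources used here. HTSeq leaves out reads with several alignments. Rows that name no gene held 38.1% to 40.3% of each file's total and were left out.

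Genes were named through GENCODE M21 of GRCm38. Counts were tested with edgeR 4.0.16 in R 4.3.3 (quasi-likelihood test, TMM, filterByExpr, Benjamini-Hochberg adjustment over 16729 genes), and each SE was taken from the SDs of log2(CPM + 0.1) in both groups. On simulated counts the fit recovered most of the planted genes, and the share of false calls was somewhat above the threshold. The simulation had the same spread for every gene, no replicate effect and no excess of multiples of 4. It therefore does not show how the fit behaves on the real counts. The members and lists were chosen with earlier results of these data known. The text names all 8 members, up to 4 called genes per list (or the 2 most abundant), and the 3 profiles most like Hilpda, Plin2 and Vldlr by Pearson r, and a few genes that the rule picks are not reported here. Further genes (Fitm1, Scarb1, Lrp1, Lrp2, Lpl, Lrpap1 and markers) were picked after their values were seen. One list symbol, Ldaf1, was not matched.

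Pairing comes from the donor numbers in the labels. Deviations from the group means of same-numbered samples correlated with r of 0.36, 0.36 and 0.66 across genes. Control replicate 1 correlated more with ICF replicate 2 (0.55), and control replicate 2 more with ICF replicate 1 (0.4), than with their same-numbered samples. Nothing states that samples came from separate cultures beyond independent experiments, so p-values measure the spread between these samples. In all, 14 alternative settings were run, among them DESeq2 1.42.0, the replicate block and leaving out each sample.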

Additional observations from a re-analysis of the deposited data

How the results depend on the processing

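Vldlr passed the threshold under all 14 alternative settings. Of the 8 genes, 1 was called lower in the main test, 3 with DESeq2 (1.42.0), 2 with the looser filter, 4 with the replicate block, 4 with DESeq2 and the block, 4 without replicate 3 of both groups, and 1 to 2 when 1 sample was left out, the second being Lipe without control replicate 3. None was called higher under these settings. Over all genes, 733 were lower and 580 higher, against 2561 and 2445 with the replicate block and 1666 and 1354 with DESeq2 and the block. They were 2627 and 2466 without replicate 3 of both groups, 1071 and 877 with DESeq2, and 1019 and 841 with the looser filter. With 1 sample left out, 215 to 928 of all genes were lower and 85 to 724 higher, fewest without control replicate 2. Of the listed genes, 6 were lower and 4 higher, against 10 and 7 with DESeq2, 17 and 18 with the block, 12 and 11 with DESeq2 and the block, 17 and 16 without replicate 3 of both groups, 9 and 6 with the looser filter, and 2 to 11 and 1 to 7 with 1 sample left out. The cause of these shifts was not tested.

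Of 112 alternative log2 fold changes of the 8 genes, 95 kept direction and side of the threshold, 13 newly passed it and 4 changed sign. Plin2 turned to -0.06 without replicate 3 of both groups, and with 1 sample left out Plin2 ranged from -0.05 to 0.09, Plin3 from -0.02 to 0.11 and Dgat1 from -0.10 to 0.01. Agpat1 ranged from -0.14 to 0.04, Sdhaf3 from -0.11 to 0.21 and Nrp2 from -0.06 to 0.07. Without replicate 3 of both groups Sdhaf3 and Nrp2 were at -0.10 and -0.06. Dividing the counts of ICF replicate 3 by 4 changed no call among the 8 genes.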
